A study of Mus musculus with 4 samples.

Results

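FGF-ERK response genes are the genes that the ERK kinases switch on soon after a fibroblast growth factor (FGF) binds its receptor. The 10 genes described here include the ETS factor genes Etv4 and Etv5, the phosphatase genes Dusp4 and Dusp6 and the sprouty-type inhibitor genes Spry2, Spry4 and Spred1. The PH-domain gene Phlda1 and the zinc-finger gene Egr1 are also among them. The ligand gene Fgf4, an input of the pathway, was added to this list and is counted with the response genes below. The 10 genes are named by their known roles in the pathway, with earlier results of these data known, and all 10 were found by symbol among 55401 gene identifiers. Messenger RNA was sequenced from EB3, a feeder-free mouse embryonic stem cell line kept in serum and LIF, a cytokine that holds such cells undifferentiated. There were 2 libraries of EB3-derived cells with NUP98-HOXA9 (replicates 1 and 2), a leukaemia fusion of a nucleoporin with a homeodomain factor. They were set against 2 libraries labelled wild type, 1 of parental EB3 cells and 1 of EB3-derived cells with an empty vector. The labels name no promoter, clone or day for the fusion cells and do not say that the libraries came from separate cultures. The p-values therefore measure only the spread between these libraries, taken from each gene and, in the fit, from all genes tested together. In the wild-type group that spread lies between 2 kinds of control.

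In mouse embryonic stem cells the main FGF is FGF4, which the cells make themselves and which acts through FGFR1 and FGFR2 on the RAS, RAF, MEK and ERK cascade. Active ERK turns on ETS factors and immediate early genes, and it also turns on its own inhibitors: DUSP phosphatases remove the activating phosphates from ERK, and sprouty and SPRED proteins act upstream on RAS and RAF. The pathway is known for moving these cells out of the naive state, towards the primed epiblast or, in the early embryo, towards primitive endoderm.

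The libraries held 19820401 and 21151729 expected counts with the fusion, against 19957932 (parental) and 19021386 (empty vector). Levels are given as CPM, counts scaled to library size with TMM factors, and log2 fold changes are the fusion libraries over the wild-type libraries from edgeR's quasi-likelihood test, with Benjamini-Hochberg adjusted p-values over 16511 genes. Of all genes tested, edgeR called 2.83% higher and 0.581% lower, and 20.1% had an unadjusted p under 0.05. DESeq2's Wald test called 5.57% higher and 2.64% lower. The counts of marker genes below are to be read beside these shares. Fewer cells with an RNA and less of it per cell cannot be told apart in such bulk samples. Markers of undifferentiated cells were present in all 4 libraries, with Pou5f1 at 1077 and 940.1 CPM in the fusion libraries, against 1018.5 CPM in the parental and 1118.5 CPM in the empty-vector library. Of 6 such markers none passed by edgeR (2 at an unadjusted p under 0.05). Those 2, which DESeq2 called higher, were Klf4 and Nanog, named after their values were seen. Klf4 had 267.5 and 228 CPM with the fusion, against 62.45 CPM (parental) and 125 CPM (empty vector), with an adjusted p of 0.0651 by edgeR. Nanog had 1040.6 and 690.3 CPM with the fusion, against 314 CPM (parental) and 489 CPM (empty vector), with an adjusted p of 0.0867 by edgeR. Both passed without the empty-vector library. Of 6 fibroblast and 4 blood or endothelial markers tested none passed (2 and 1 at an unadjusted p under 0.05, and 0 called by DESeq2). The 7 fibroblast markers summed to 47.3 and 55.8 CPM with the fusion, against 40.6 CPM (parental) and 27.3 CPM (empty vector), and the pan-leukocyte gene Ptprc lay between 0 and 0.156 CPM. The 7 primitive endoderm markers summed to 127 and 161 CPM with the fusion, against 13.4 CPM (parental) and 8.7 CPM (empty vector). The 3 of them that averaged at least 1 CPM in wild-type cells rose. The other 4 (Gata6, Sox17, Sox7 and Foxa2) entered the test only through the fusion libraries, where they were high, so their calls as higher are favoured by the filter. The summed level of 4 primed epiblast markers was 187 and 256.4 CPM with the fusion, against 506 CPM (parental) and 632 CPM (empty vector). Most of that sum was Dnmt3b, at 172.3 and 231.5 CPM with the fusion, against 404.9 CPM (parental) and 517.2 CPM (empty vector). Of the 4 markers 3 fell, namely Otx2, Pou3f1 and Dnmt3b. The count was 2 without the parental library and 1 without any other single library. Their part in the results below was not tested.

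The response genes did not move as a block. Etv4 rose 3.92-fold and Phlda1 4.05-fold with the fusion, and the other 8 genes did not pass the test. Egr1, the gene with the lowest fold change, lay below both wild-type libraries in both fusion libraries but missed the threshold. All 10 genes passed the filter on low counts (edgeR's filterByExpr at a minimum count of 10), and each averaged over 1 CPM in the wild-type libraries. In all, 2 of 10 were called higher, where 2.83% of all genes tested were called higher, and 0 of 10 were called lower, where 0.581% of all genes were. At an unadjusted p under 0.05 the count was 3 of 10, Egr1 being the third, where 20.1% of all genes tested were under it. DESeq2's Wald test called Etv4 and Phlda1 higher and Egr1 lower, where it called 5.57% of all genes higher and 2.64% lower. The median log2 fold change of the 10 was -0.19, beside a median of 0 over all genes tested, and 4 were positive and 6 negative. Their summed TPM, a level scaled for transcript length and depth, was 640.0 and 582 in the fusion libraries, against 512.5 in the parental and 618 in the empty-vector library. The sums overlapped between the groups.

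**Figure D1:**
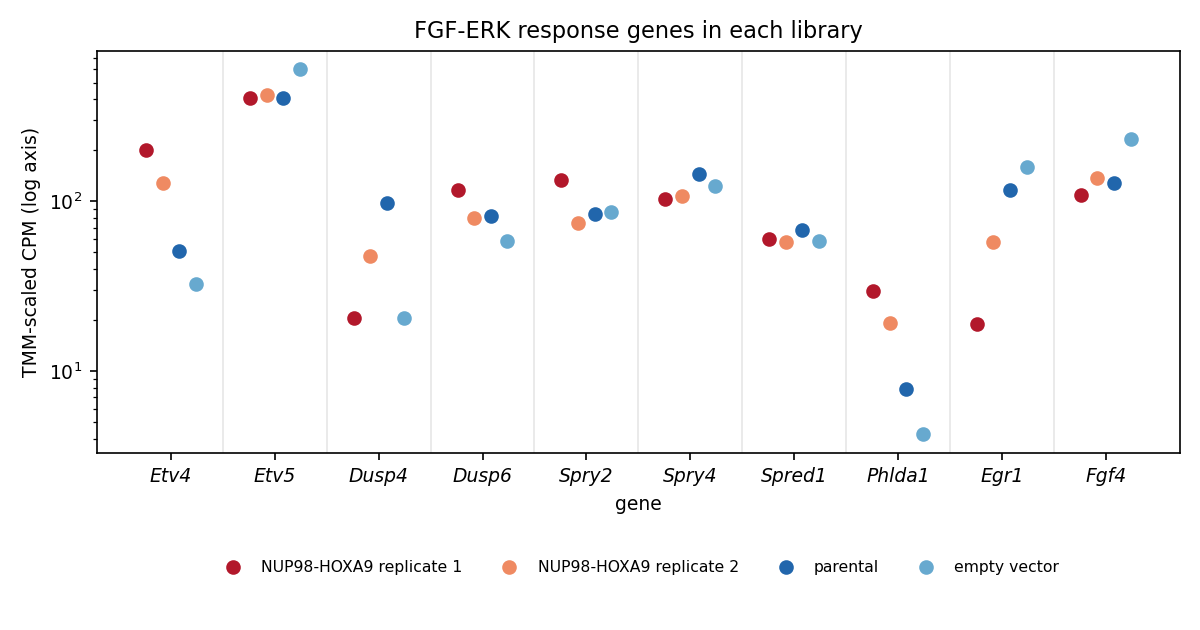
TMM-scaled CPM of the 10 response genes on a log axis, 1 point for each library: red and orange for NUP98-HOXA9 replicates 1 and 2, dark and light blue for the parental and empty-vector libraries. Both fusion points lie above both wild-type points for Etv4 and Phlda1 and below them for Egr1 and Spry4, and the groups overlap for the other 6 genes.

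Etv4 and Etv5 encode close relatives of the PEA3 group of ETS factors, and both are standard readouts of FGF signalling. Etv4 (chromosome 11, 101769742 to 101785371, minus strand, GRCm38) stood at 200.1 and 129 CPM in fusion replicates 1 and 2, against 51.3 CPM in the parental and 32.5 CPM in the empty-vector library. Every fusion library was above every wild-type library. The log2 fold change was 1.97 (SE 0.3, 3.92-fold, adjusted p = 0.0255, edgeR). It lost its call without fusion replicate 1 (log2 1.61, adjusted p = 0.0951) and kept it when any other single library was left out, with log2 values from 1.66 to 2.33. Etv5 (chromosome 16, 22381309 to 22439719, minus strand) had 408 and 421 CPM with the fusion, against 407 CPM in the parental and 601 CPM in the empty-vector library. The fusion libraries sat within the range of the controls, and the log2 fold change was -0.28 (SE 0.22, adjusted p = 0.552). Per transcript length, Etv4 reached 159 and 112 TPM in the fusion libraries, against 39.9 TPM (parental) and 29.45 TPM (empty vector). Etv5 had 158 and 167 TPM with the fusion, against 143 TPM (parental) and 231 TPM (empty vector). By TPM, Etv4 had rank 1 among the 10 genes in fusion replicate 1 and rank 2 in replicate 2, against rank 8 in the parental and rank 7 in the empty-vector library. Etv5 shares 18.7% of its 75-base windows with the pseudogene Gm4798, and its expected counts are not whole in any library. Gm4798 itself was given 73.2 and 123 expected counts in the fusion libraries, against 100.04 (parental) and 145 (empty vector). Etv4 shares no such window with another annotated transcript.

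Phlda1 encodes a PH-domain protein whose gene is induced by ERK and other growth signals. It (chromosome 10, 111506286 to 111508645, plus strand) stood at 29.8 and 19.3 CPM in the fusion libraries, against 7.87 CPM in the parental and 4.24 CPM in the empty-vector library. Both fusion libraries were above both controls. The log2 fold change was 2.02 (SE 0.39, 4.05-fold, adjusted p = 0.0452). The call is close to the threshold: leaving out fusion replicate 1 gave log2 1.66 (adjusted p = 0.203), leaving out fusion replicate 2 gave 2.3 (adjusted p = 0.0536), and leaving out the empty-vector library gave 1.62 (adjusted p = 0.0674). Against the empty vector alone it was 2.52 (adjusted p = 0.0132). Phlda1 overlaps the noncoding Gm28592 on the opposite strand, with 27.3% of its 75-base windows in common, and Gm28592 had 0 to 3 expected counts in each library. The strand setting of the counting step is unknown here.

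Egr1 encodes an immediate early zinc-finger factor, usually among the first messages to appear after ERK activation. It (chromosome 18, 34859823 to 34864984, plus strand) stood at 19 and 57.4 CPM in fusion replicates 1 and 2, against 117 CPM in the parental and 159 CPM in the empty-vector library. Both fusion libraries were below both controls, but replicate 2 stood above replicate 1 by a log2 ratio of 1.57. The log2 fold change was -1.85 (SE 0.47) and did not pass (adjusted p = 0.0849). Without fusion replicate 2 it was -2.86 and passed (adjusted p = 0.0147). Without fusion replicate 1 it was -1.27 (adjusted p = 0.129), and the adjusted p was 0.473 without the parental library, 0.493 without the empty-vector library and 0.467 with no filter. DESeq2 gave -1.87 (adjusted p = 0.000857). Among all genes tested, 27.1% had both fusion libraries above both wild-type libraries and 24.2% had both below. Of the response genes 2 of 10 were above (Etv4 and Phlda1) and 2 of 10 were below (Egr1 and Spry4), shares near those of all genes.

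The feedback inhibitors Dusp4, Dusp6, Spry2, Spry4 and Spred1 gave no call. Dusp6, which encodes a cytoplasmic phosphatase specific for ERK (chromosome 10, 99263231 to 99267489, plus strand), had 116 and 79.3 CPM with the fusion, against 81.7 CPM in the parental and 58.6 CPM in the empty-vector library. Fusion replicate 1 was the highest of the 4, and fusion replicate 2 lay between the controls. The log2 fold change was 0.48 (SE 0.26, adjusted p = 0.364), positive with each library left out (0.17 to 0.73). Spry2 (chromosome 14, 105891947 to 105896819, minus strand), a membrane-associated inhibitor of RAS-ERK signalling, had 133 and 74 CPM in the fusion libraries, against 84.2 CPM (parental) and 86.6 CPM (empty vector). The controls lay between the fusion libraries, and the log2 fold change of 0.28 (SE 0.28, adjusted p = 0.66) turned to -0.21 without fusion replicate 1. Spry4 (chromosome 18, 38586247 to 38601415, minus strand), of the same family, had 104 and 107 CPM with the fusion, against 145 CPM (parental) and 123 CPM (empty vector). Both fusion libraries were below both controls by a small margin, with a log2 fold change of -0.35 (SE 0.18, adjusted p = 0.338). Spred1, which brings neurofibromin to RAS (chromosome 2, 117121374 to 117182279, plus strand), was the steadiest of the 10, at 60.0 and 57.7 CPM with the fusion, against 67.5 CPM (parental) and 57.97 CPM (empty vector). Its log2 fold change was -0.09 (SE 0.19, adjusted p = 0.845).

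Dusp4, which encodes a nuclear phosphatase of ERK (chromosome 8, 34807297 to 34819894, plus strand), was uneven within both groups. It had 20.6 and 47.8 CPM in fusion replicates 1 and 2, against 97.7 CPM in the parental and 20.5 CPM in the empty-vector library. The highest and the lowest value were both wild type. The log2 fold change of -0.79 (SE 0.68, adjusted p = 0.598) turned to 0.72 against the empty vector alone (adjusted p = 0.635) and was -1.54 against the parental line alone. Dusp4 lies on chromosome 8, where the median log2 ratio of empty vector to parental over 772 genes was -0.38, beside a median of 0 over all 14673 genes at a mean of 1 CPM or more. The log2 ratio of Dusp4 itself was -2.22. On the chromosomes of the other 9 genes these medians lay between -0.03 and 0.08. For the fusion over the wild-type libraries, the chromosome 8 median was -0.18, beside -0.01 over all genes. The part of the chromosome in the level of Dusp4 was not tested.

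Fgf4, the autocrine ligand whose enhancer is bound by OCT4 and SOX2 (chromosome 7, 144847367 to 144865243, plus strand), had 109 and 137 CPM in the fusion libraries, against 129 CPM in the parental and 231 CPM in the empty-vector library. The parental value lay between the fusion libraries, and only the empty-vector library stood higher. The log2 fold change was -0.55 (SE 0.29, adjusted p = 0.356). It was -0.93 against the empty vector alone (adjusted p = 0.0816) and -0.09 against the parental line alone (adjusted p = 0.908). Sox2 itself, a pluripotency factor, stood at 289 and 384 CPM with the fusion, against 414 CPM (parental) and 436.5 CPM (empty vector), with an adjusted p of 0.404.

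**Figure D2:**
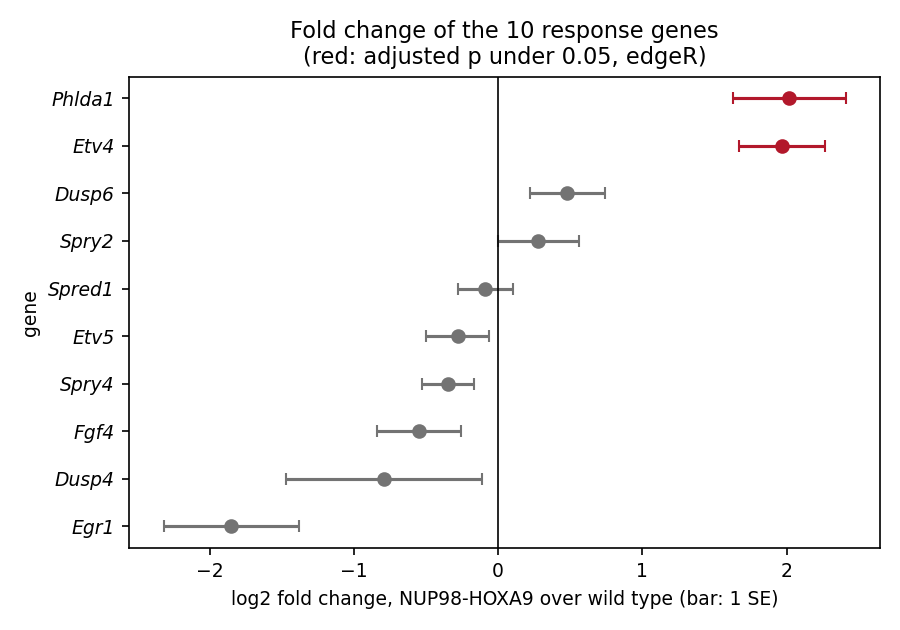
Log2 fold change of each of the 10 genes, NUP98-HOXA9 over wild type, with a bar of 1 SE on each side (n = 2 libraries in each group). Phlda1 (2.02) and Etv4 (1.97), in red, passed an adjusted p of 0.05, and the grey genes, down to Egr1 at -1.85, did not.

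**Figure D3:**
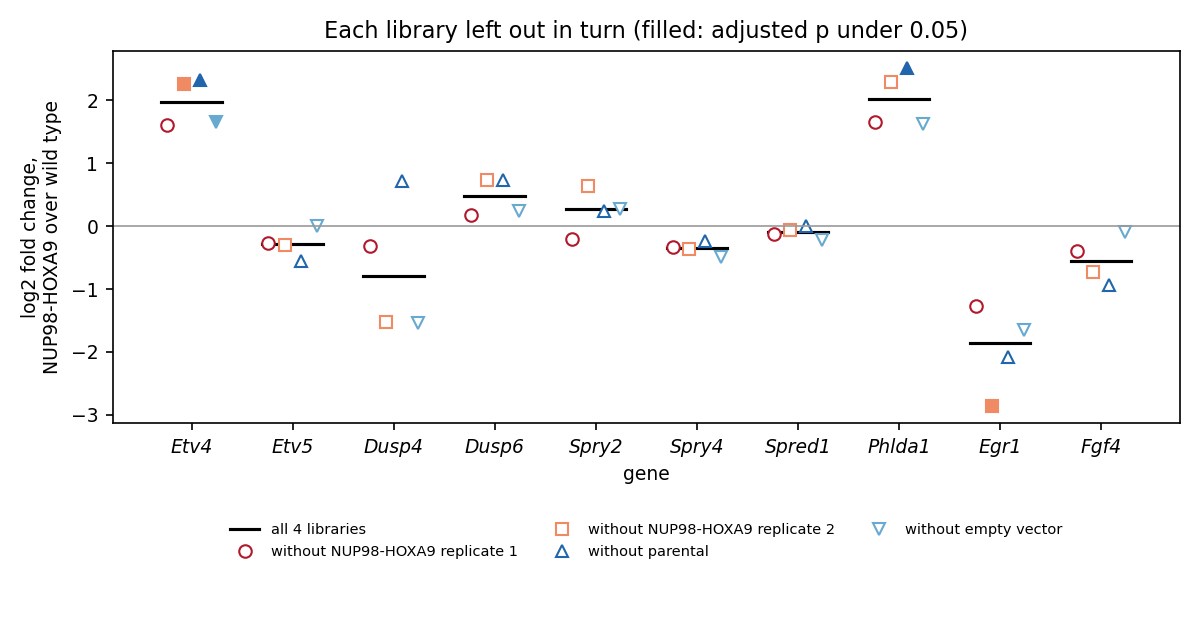
Log2 fold change of each gene with 1 library left out, as 4 symbols a gene, beside the value from all 4 libraries as a black line. Filled symbols passed an adjusted p of 0.05: 3 of 4 for Etv4, 1 of 4 for Phlda1 and 1 of 4 for Egr1, and Dusp4 changed sign without the parental library.

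By TPM the genes spanned a wide range of levels. In the fusion libraries the order of the means was Etv5 (163 TPM), Etv4 (135.5 TPM), Spry2 (76.7), Dusp6 (65.5), Fgf4 (62.5), Spry4 (33.8), Phlda1 (20.4), Dusp4 (19.4), Egr1 (19.2) and Spred1 (15.5). In the wild-type libraries it was Etv5 (187 TPM), Fgf4 (85.75), Egr1 (64.5), Spry2 (59.1), Dusp6 (44.1), Spry4 (39.8), Etv4 (34.7), Dusp4 (30.1), Spred1 (15.4) and Phlda1 (4.88). Etv5 and Etv4 overlapped in the fusion libraries and both stood above Spry2; Spry2, Dusp6 and Fgf4 overlapped as neighbours, as did Phlda1, Dusp4, Egr1 and Spred1. Among wild-type cells Etv5 stood apart from Fgf4, Spry2 from Dusp6 and Spred1 from Phlda1, and the other neighbours overlapped. Phlda1 was the lowest of the 10 in both wild-type libraries. With the fusion it had rank 7 in replicate 1 and rank 9 in replicate 2.

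Differences within each group limit what the 2 libraries a group can show. Between the fusion libraries 2 of 10 genes, Dusp4 and Egr1, were at least 2-fold apart, both higher in replicate 2. Over all genes with at least 1 CPM in either of those libraries, 7.2% were that far apart. Between the controls 1 of 10, Dusp4, was at least 2-fold apart, beside 6.15% of all such genes. The median size of the log2 ratio between the fusion libraries was 0.58 for the 10 genes and 0.28 for all genes, and between the controls it was 0.52 for the 10 and 0.27 for all genes. These ratios have 1 library on each side and no test.

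**Figure D4:**
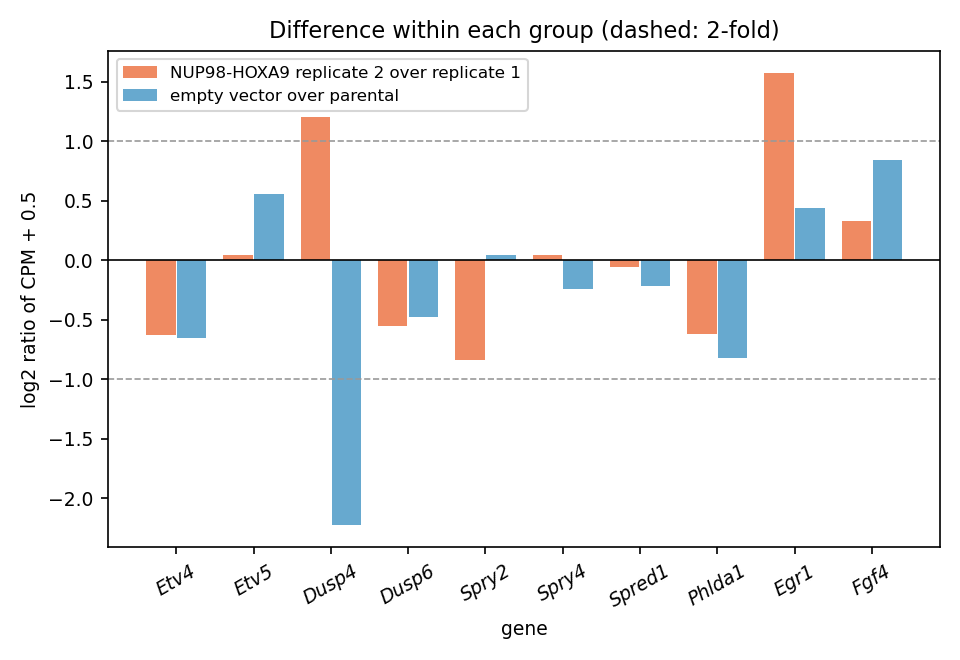
Log2 ratio of CPM + 0.5 between the libraries of each group, fusion replicate 2 over replicate 1 in orange and empty vector over parental in blue, with dashed lines at 2-fold. Dusp4 (1.2 and -2.22) and Egr1 (1.57 between the fusion libraries) pass a line, and the other 8 genes stay inside both.

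Profiles over the 4 libraries were compared by the Euclidean distance between log2 values centred on each gene's mean. Among the 10 genes Etv4 and Phlda1 were the closest pair (distance 0.121), followed by Spry4 and Spred1 (0.264), Etv5 and Fgf4 (0.375), and Dusp6 and Spry2 (0.492). Among 9279 other genes at a mean of 10 CPM or more, those nearest to Etv4 were Steap2 (0.124), Spsb1 (0.153) and Bach2 (0.165). Steap2, a metalloreductase gene, had 74.9 and 51.02 CPM in the fusion libraries, against 18.6 CPM (parental) and 13.05 CPM (empty vector). The nearest to Dusp6 were Elovl1 (0.097), Nradd (0.098) and Zcrb1 (0.105). The nearest to Fgf4 was Tet1, a 5-methylcytosine dioxygenase gene (0.057), at 323 and 387 CPM with the fusion, against 370 CPM (parental) and 681 CPM (empty vector). Zfp874a was also among the 3 nearest (0.098). With 4 libraries such likeness is a description only.

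Promoter sequences from RefSeq (GRCm38.p6, 250 bases before to 50 after the start) were matched for 5 of the 10 genes: Etv5, with 2 starts, Dusp6, Spry2, Spred1 and Fgf4. The pairs with like profiles for which both sequences were at hand, Etv5 with Fgf4 and Dusp6 with Spry2, are printed 5′ to 3′ on the strand of the gene. Capitals mark CCAAT boxes on either strand, chosen after the sequences were seen. The windows are chr16:22439521-22439820 (minus), chr7:144861136-144861435 (plus), chr10:99262981-99263280 (plus) and chr14:105896770-105897069 (minus). The Fgf4 window lies inside the gene span given above (144847367 to 144865243), so its RefSeq start is not the start of that span.
Etv5: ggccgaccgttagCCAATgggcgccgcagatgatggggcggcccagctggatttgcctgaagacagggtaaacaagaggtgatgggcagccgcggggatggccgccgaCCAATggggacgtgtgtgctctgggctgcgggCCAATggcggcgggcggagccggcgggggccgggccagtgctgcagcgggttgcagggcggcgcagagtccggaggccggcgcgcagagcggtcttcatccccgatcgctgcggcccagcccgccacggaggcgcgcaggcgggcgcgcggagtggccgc
Fgf4: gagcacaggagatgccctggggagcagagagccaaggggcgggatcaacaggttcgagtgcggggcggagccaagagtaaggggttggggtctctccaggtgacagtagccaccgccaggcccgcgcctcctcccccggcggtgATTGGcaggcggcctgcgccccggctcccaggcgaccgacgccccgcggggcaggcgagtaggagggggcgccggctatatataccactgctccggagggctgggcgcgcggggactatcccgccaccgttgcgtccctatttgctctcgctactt
Dusp6: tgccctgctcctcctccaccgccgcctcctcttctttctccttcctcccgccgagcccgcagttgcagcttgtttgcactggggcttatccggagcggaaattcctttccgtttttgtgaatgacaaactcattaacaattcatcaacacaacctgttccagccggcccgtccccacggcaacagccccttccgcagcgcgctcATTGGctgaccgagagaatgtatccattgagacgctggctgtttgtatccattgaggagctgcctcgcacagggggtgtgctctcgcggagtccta
Spry2: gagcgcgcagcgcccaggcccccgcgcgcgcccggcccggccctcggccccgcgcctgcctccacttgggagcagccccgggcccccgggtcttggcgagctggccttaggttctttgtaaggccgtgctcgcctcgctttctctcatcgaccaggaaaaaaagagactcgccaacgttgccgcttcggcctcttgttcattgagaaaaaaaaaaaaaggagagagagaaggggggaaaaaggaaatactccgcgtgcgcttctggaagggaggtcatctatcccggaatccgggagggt

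The motifs searched on both strands were the ETS sites CCGGAAGT and CAGGAAGT, the CArG box of serum response factor, the AP-1 site TGANTCA, the cAMP response element TGACGTCA and the TATA box TATAAA. None of these was found in any of the 6 windows of the 5 genes, where 3.89%, 3.33%, 1.63%, 7.81%, 1.79% and 13.6% of 32851 mouse promoter windows hold them, in that order. That says only that these letters are not in these 300 bases. A CCAAT box was found in windows of Etv5, Dusp6 and Fgf4, and 37.4% of all windows hold one. Dusp6 had 57.3% G and C in its window, Spry2 62.7%, Fgf4 69.7% and the Etv5 window shown 74.0%, beside a median of 52.7% over all windows.

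The rest of the pathway was described from lists of ligands, receptors, cascade members and other targets. For every list count from here on, the shares over all genes tested are the same. By edgeR 2.83% were called higher and 0.581% lower, and 20.1% had an unadjusted p under 0.05. By DESeq2 5.57% were called higher and 2.64% lower. Of 12 FGF ligand genes tested among 21 listed, none passed by edgeR at its main setting, and DESeq2 called 3 lower. With DESeq2 size factors edgeR called 1 of 12 lower, where it called 123 of 16511 genes lower. A filter of 1 CPM in 2 libraries gave 1 of 11 lower, where 120 of 14894 genes were. No filter gave 2 of 21 lower, where 631 of 28816 genes were. At an unadjusted p under 0.05 in the main setting there were 5. Of those 5, Fgf5, Fgf17 and Fgf15 were below both controls in both fusion libraries, and Fgf2 and Fgf10 were above both. The median log2 fold change was -0.34. Fgf5, a marker of the primed epiblast, had the smallest adjusted p, at 0.451 and 1.32 CPM with the fusion, against 11.98 CPM (parental) and 4.72 CPM (empty vector), log2 -3.22 (SE 0.68, adjusted p = 0.0536). Fgf17, an FGF8-type ligand, had 4.91 and 12.45 CPM with the fusion, against 31.7 CPM (parental) and 27.4 CPM (empty vector), log2 -1.77 (adjusted p = 0.078). Fgf10 had 1.905 and 2.69 CPM with the fusion, against 0.833 CPM (parental) and 0.6365 CPM (empty vector), log2 1.64 (adjusted p = 0.126). Fgf2 had 2.26 and 1.09 CPM with the fusion, against 0.26 CPM (parental) and 0.583 CPM (empty vector), log2 1.97 (adjusted p = 0.152). On the wild-type libraries alone Fgf2 would not have entered the test, nor Fgf5 on the fusion libraries alone. Their differences are therefore favoured by the filter. Fgf10, Fgf2 and Fgf15 were named after their values were seen.

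Of 12 receptor and co-receptor genes tested, 4 had an unadjusted p under 0.05, and DESeq2 called 4 higher. By edgeR 3 rose and none fell, where 2.83% of all genes tested were called higher and 0.581% lower. Among the 3, Klb entered the test only through the fusion libraries, so its call is favoured by the filter. Fgfr3 rose to 11.98 and 8.62 CPM in the fusion libraries, against 1.615 CPM (parental) and 0.796 CPM (empty vector), log2 3.09 (SE 0.48, adjusted p = 0.0259). Without fusion replicate 1 it was 2.82 and did not pass (adjusted p = 0.114). Flrt3, which encodes a membrane protein that binds FGF receptors, rose to 15.1 and 19.1 CPM with the fusion, against 4.74 CPM (parental) and 3.29 CPM (empty vector), log2 2.09 (SE 0.34, adjusted p = 0.0293). It missed the threshold without fusion replicate 1 (adjusted p = 0.084) and without fusion replicate 2 (adjusted p = 0.0785). Klb, which encodes beta-klotho, the co-receptor of the endocrine FGFs, had 269 counts over the fusion libraries and 2 over the wild-type libraries, a ratio of 122 (95% exact binomial interval 33.5 to 1014, counting error only; adjusted p = 0.0227). The main receptor of these cells, Fgfr1, was named after its values were seen. It had 227 and 185 CPM with the fusion, against 168 CPM (parental) and 133 CPM (empty vector), and did not pass (log2 0.45, adjusted p = 0.272). Like Dusp4 it lies on chromosome 8, where the median log2 ratio of empty vector to parental was -0.38. Its own ratio was -0.33, and the part of the chromosome was not tested. Fgfr2, also named after its values were seen, had 14.1 and 33.4 CPM with the fusion, against 30.4 CPM (parental) and 23.8 CPM (empty vector).

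None of 21 genes of the RAS-ERK cascade passed by edgeR (3 at an unadjusted p under 0.05, and 1 called by DESeq2), and their log2 fold changes lay between -0.57 and 1.12 with a median of -0.01. Ksr1, a scaffold of the cascade, and Shc1, an adaptor, had the smallest adjusted p. Ksr1 had 23.9 and 38.1 CPM with the fusion, against 13.75 CPM (parental) and 14.75 CPM (empty vector), adjusted p = 0.0903. Shc1 had 169 and 158 CPM with the fusion, against 99.4 CPM (parental) and 118 CPM (empty vector), adjusted p = 0.129. None of 15 other immediate early genes passed either (1 at an unadjusted p under 0.05, and 0 called by DESeq2), with a median of -0.14. The smallest adjusted p among them was 0.21 for Atf3, a stress-induced factor, at 6.32 and 3.97 CPM with the fusion, against 2.76 CPM (parental) and 1.43 CPM (empty vector), and next came Fosl1, at 0.501 and 0.638 CPM with the fusion, against 0.729 CPM (parental) and 2.39 CPM (empty vector). Fos, named after its values were seen, had 16.3 and 7.75 CPM with the fusion, against 16.4 CPM (parental) and 23.1 CPM (empty vector).

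Among 16 other feedback inhibitors tested, Dusp9 rose and none fell (median log2 0.08). At an unadjusted p under 0.05 there were 5, and DESeq2 called 3 higher. Dusp9, which encodes an ERK phosphatase known in mouse embryonic stem cells as a target of BMP signalling, rose to 619.6 and 457.5 CPM with the fusion, against 69.85 CPM (parental) and 93.35 CPM (empty vector), log2 2.72 (SE 0.24, adjusted p = 0.00844). Of the DUSP genes in the lists it was the one with the highest level in the fusion libraries in CPM, a unit that does not correct for length. Of 15 ETS factors and nuclear substrates of ERK, Erf rose and none fell (median log2 0.29). At an unadjusted p under 0.05 there were 6, and DESeq2 called 2 higher. Erf, an ETS repressor that ERK moves out of the nucleus, rose to 426 and 280.0 CPM with the fusion, against 82.9 CPM (parental) and 96.3 CPM (empty vector), log2 1.98 (SE 0.24, adjusted p = 0.014). Dusp9 and Erf each passed with any 1 library left out. So did Klb, which entered the test only through the fusion libraries, where it is high. Etv1, the remaining PEA3 factor, named after its values were seen, had 53.6 and 36.4 CPM with the fusion, against 26.9 CPM (parental) and 19.6 CPM (empty vector), log2 0.95 (SE 0.28, adjusted p = 0.117). Of 5 genes of LIF reception and its response none passed (3 at an unadjusted p under 0.05, and 1 called by DESeq2). Jak1, the kinase that starts the LIF signal, had 84.8 and 89.6 CPM with the fusion, against 51.5 CPM (parental) and 44.3 CPM (empty vector), adjusted p = 0.0548. Lifr, the LIF receptor gene, had 43.3 and 48.8 CPM with the fusion, against 66.8 CPM (parental) and 74.3 CPM (empty vector), adjusted p = 0.131.

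**Figure D5:**
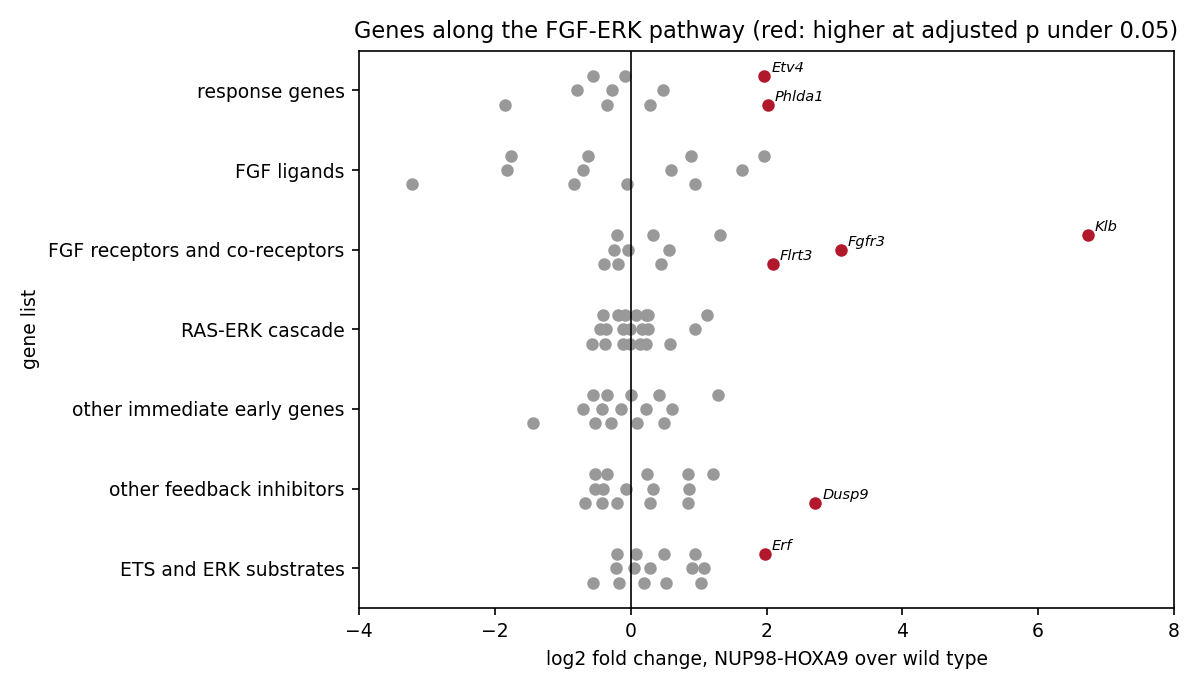
Log2 fold change, NUP98-HOXA9 over wild type, of each tested gene in 7 lists along the FGF-ERK pathway, 1 point a gene. The 7 named points in red passed an adjusted p of 0.05, from Etv4 at 1.97 to Klb at a fitted 6.74, and no gene of these lists passed on the lower side.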

How the data were processed

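Each library has 1 deposited RSEM table that lists expected counts, TPM and FPKM by gene, per the file headers; FPKM was not used. Libraries were made with a stranded mRNA kit, per the labels' protocols. The submitters' processing notes name STAR 2.7.10a, RSEM 1.3.3, DESeq2 1.36.0 and the GRCm38 (mm10) build. For the annotation release and strand setting, nothing is given in the sources used. Symbols and coordinates came from GENCODE vM21 (GRCm38), which matched 55141 of 55401 identifiers.

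After rounding of the expected counts to whole numbers, genes were tested by edgeR 4.0.16 under R 4.3.3 (TMM, filterByExpr at a minimum count of 10, robust quasi-likelihood fit, threshold 0.05, 2 residual degrees of freedom). The script was tested on data simulated with a common spread for every gene (a coefficient of variation of 25.6%). That differs from the gene-by-gene spread of these libraries, and no result is drawn from it. Besides the 2 residual degrees of freedom, the edgeR fit drew on the spread of all genes, with a median of 5.04 prior degrees of freedom. SE is the absolute log2 fold change over the square root of F. TPM deposited by the authors served for levels between genes. Alternatives were other scalings and filters, a fit that is not robust, DESeq2 1.42.0, limma 3.58.1 on log2 of TPM plus 1 or 0.1, and each library left out. Members, gene lists and tests were chosen with earlier results of these data known. In each pathway list, genes past the threshold were named, or the 2 with the smallest adjusted p where none passed. A 75-base window is the read length implied by the deposited effective lengths. Tables were read with pandas 2.3.3, and plots drawn with matplotlib 3.10.9. One gene near Fgf4 in profile is not reported here.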

Additional observations from a re-analysis of the deposited data

How the results depend on the processing

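The direction of Etv4, Phlda1 and Egr1 held under all 12 alternatives run, and the calls of Etv4 and Phlda1 held under the 8 that keep all 4 libraries. Of the 10 response genes 2 passed with all 4 libraries. With a library left out, which genes passed changed, as given above for Etv4, Phlda1 and Egr1. Their log2 fold changes then lay between 1.61 and 2.33 for Etv4, 1.62 and 2.52 for Phlda1, and -2.86 and -1.27 for Egr1. Over all genes, 468 were higher and 96 lower; no filter gave 1315 and 631 over 28816 genes, DESeq2 gave 919 and 436, and leaving out a library gave 152 to 367 higher and 11 to 185 lower. The lone library of a group is then assumed to vary like the others. Signs of the log2 fold change turned for 4 genes, none past the threshold: with a library left out Dusp4 ranged from -1.54 to 0.72 (without the parental library), Spry2 from -0.21 (without fusion replicate 1) to 0.64, Etv5 from -0.55 to 0 (without the empty-vector library) and Spred1 from -0.22 to 0.01 (without the parental library). Spred1 was also 0.01 by limma on TPM with either pseudocount. The causes were not tested. The ratios within a group kept their sign under other scalings. No paired analysis was possible because the controls are 1 parental and 1 empty-vector library, which the labels do not pair with the fusion replicates. The 10 genes had 80 to 11326 expected counts in each library. Whether depth or the 2 libraries a group limited the calls was not tested. The list counts by edgeR are those of its main setting unless stated. With no filter it also called 1 of 21 RAS-ERK cascade genes, 2 of 6 undifferentiated-cell markers and 1 of 5 LIF genes higher. Scaling by library totals called 1 of 5 LIF genes higher, beside 467 of 16511 genes. It called 2 of 4 primed epiblast markers lower, beside 68 of all genes. Limma on log2 of TPM plus 1 called 1 of 4 of these markers lower, beside 79 of all genes.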
